A study of Mus musculus with 2 samples.

Results

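The genes described here encode the enzymes of upper glycolysis, the part of the pathway that turns glucose into triose phosphates. The 9 genes were Hk1, Hk2, Gpi1, Pfkl, Pfkm, Pfkp, Aldoa, Aldoc and Tpi1, taken by symbol from the 27998 genes listed in both deposited count tables, and each was found once in each table. They were chosen because of their place in the pathway and not for any measured value. Several steps are shared by isoforms, so the balance of Hk1 and Hk2, of Pfkl, Pfkm and Pfkp, and of Aldoa and Aldoc was followed by day of culture and across cells grouped by the molecules they held of Dppa5a, Fgf5, Six6, Fezf2, Wnt8b, Sox10 or Col4a1.

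Hexokinase traps glucose in the cell as glucose 6-phosphate, glucose 6-phosphate isomerase converts that to fructose 6-phosphate, phosphofructokinase commits it to glycolysis, aldolase splits the product, and triose phosphate isomerase makes both pieces usable by the lower part of the pathway. Hk1 is the widely expressed hexokinase and Hk2 the inducible one of muscle, embryonic and proliferating cells. The phosphofructokinase isoforms are named for liver (Pfkl), muscle (Pfkm) and platelet (Pfkp), and the aldolases are best known from muscle (Aldoa) and brain (Aldoc). Gpi1 and Tpi1 serve their steps without a sister isoform.

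The cells came from eye organoids, cultured from a mouse embryonic stem cell line with 1 Rax allele that carries a green fluorescent protein knockin (Rax-GFP, heterozygous), Rax being a gene of the eye field, and were profiled by single cell RNA sequencing. Culture day 6, the start of optic vesicle budding, was compared with culture day 4, the eye field stage, and both groups carried the same reporter and received no other treatment. Each day was 1 library that pooled 3 biological experiments, with no map used here from cells to experiments, so there was 1 sample per day and no test between groups was possible. After the cell filter the day 6 library held 6641 cells (median 12514 unique molecular identifiers, UMIs, per cell) and the day 4 library 8147 cells (median 11216), and 78 cell barcodes occurred among the kept cells of both. Levels are given in CPM, the UMIs of a gene in every 1000000 UMIs of a group's summed cells, a unit that counts each molecule once at its 3′ end whatever its length. All intervals in parentheses are 95% intervals for counting error only, and they leave out differences between experiments and between cells.

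The labels call the cells retina progenitors. The 5 optic vesicle markers Six6, Rax, Pax6, Lhx2 and Six3 summed to 649 CPM in day 6 cells and 38.3 CPM in day 4 cells, and 7 markers of naive pluripotent cells to 569.8 CPM on day 6 and 909 CPM on day 4, so both libraries held cells that go against that label. Dppa5a, a gene of naive pluripotent cells, was present at 4 or more UMIs in 697 day 6 cells (10.5%) and 2414 day 4 cells (29.6%). Fgf5, a gene of the formative epiblast, was present at 2 or more UMIs in 101 day 6 and 3763 day 4 cells. The day 6 library also had 2001 cells with at least 2 UMIs of Six6 (optic vesicle), 823 of Fezf2 (anterior forebrain), 368 of Wnt8b (dorsal forebrain), 172 with at least 4 UMIs of Col4a1 (basement membrane, abundant in early endoderm) and 70 with at least 1 UMI of Sox10 (neural crest), while on day 4 only Fezf2 of these, with 104 cells, reached the 50 cells asked of a group. Each set is called positive below and was set against the cells of the same library with no UMI of that marker. Median UMIs per cell were higher in positive than in zero cells in every set but Col4a1. They were 12964 and 9531.5 for Fgf5 on day 4, and 14180 and 12183 for Fezf2 and 15835.5 and 12484 for Sox10 on day 6. An alternative with equal depth per cell kept the sets formed at full depth, so the part of depth in forming them was not tested. The sets overlapped: 71 of the 101 Fgf5-positive and 110 of the 172 Col4a1-positive cells of day 6 were Dppa5a-positive too, against 21 of the 2001 Six6-positive cells.

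On the mouse build GRCm38 the hexokinase genes lie at chr10:62268855-62379908 (Hk1) and chr6:82725025-82774454 (Hk2), both on the minus strand. Gpi1 lies at chr7:34201330-34230336 on the minus strand. The phosphofructokinase genes lie at chr10:77986947-78010083 (Pfkl, minus), chr15:98092589-98132451 (Pfkm, plus) and chr13:6579768-6648777 (Pfkp, minus). The aldolase genes lie at chr7:126795234-126800751 (Aldoa, minus) and chr11:78322968-78327781 (Aldoc, plus), and Tpi1 lies at chr6:124810586-124814296 on the minus strand. No member shared a stretch of at least 90 bases at 95% identity or more with another member in its last 600 transcript bases, where these libraries read, so the isoforms of a step could be told apart. Pfkm shared such a stretch with Gm26513, which overlaps it on the same strand, and Gpi1, Aldoa and Tpi1 each shared one with a processed pseudogene (Gm1840, Aldoa-ps4 and Tpi-rs11). Gpi1 also shared shorter ones with Mrpl27 (101 bases) and Adh5 (90 bases), so the levels of these 4 genes carry that uncertainty. Hk1, Gpi1, Pfkm, Pfkp, Aldoa and Tpi1 also overlap an exon of a gene on the other strand, and the sources used here do not say whether the counting used strand.

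Hypoxia-inducible factors are textbook activators of glycolytic genes, and the core of their binding sites reads ACGTG or GCGTG, of which only the first was searched. Promoters of 250 bases before to 50 bases after the transcription start were taken from RefSeq (GRCm38.p6) and searched for ACGTG on both strands, because hypoxia genes and several members were high in the same cells, as given below. All 9 members had a promoter in the table, 16 in all, and 5 members had the letters in at least 1 of them: Hk1, Hk2, Pfkm, Aldoa and Aldoc. Of the 16 member promoters 7 had it, among them overlapping promoters of Aldoa that share the same match. Among all genes with a promoter there, 27025 in number, 21.8% had it, and among all 32851 promoters 19.6%. The members have more promoters per gene than the whole set, so the shares of genes are not like for like, and enrichment was not tested. Hk1 and Hk2 held 2 matches each, Pfkm 4, and Aldoa and Aldoc 1 position each. Of the 4 matches of Pfkm, 2 lie 1 base apart and are 1 palindromic site read on both strands. The windows shown here hold for each of these members the match nearest a transcription start, read on the strand of the gene, with that match (ACGTG, or its reverse complement CACGT) in capitals between its neighbouring bases, so that the sister isoforms can be set side by side. The second match of Hk1 falls in the same window and is left in lower case. They lie at chr10:62340398-62340426 on the minus strand (Hk1), chr6:82774490-82774518 on the minus strand (Hk2), chr15:98092593-98092621 on the plus strand (Pfkm), chr7:126799364-126799392 on the minus strand (Aldoa) and chr11:78323088-78323116 on the plus strand (Aldoc).
Hk1: cgcgcgctccttACGTGgggaacgtgcag
Hk2: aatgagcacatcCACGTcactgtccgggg
Pfkm: atccagaaagatCACGTtagggtatacga
Aldoa: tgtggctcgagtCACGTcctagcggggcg
Aldoc: cccccagggagtCACGTagctctgcggca
Pfkp, the member that differed most between cells with and without Dppa5a, had no match in its 1 promoter, nor had Gpi1, Pfkl and Tpi1. A match in a window is a description of letters and not of a bound site.

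Day 6 was set against day 4 to ask how the enzymes differ once vesicle budding has begun. Since no test was possible, differences were read by their size: a gene counts as higher or lower where the 2 levels differ by 1.5-fold or more and the interval of the ratio does not include 1, and genes whose mean over both groups is under 10 CPM are not read. Of the 8 members measured at that level, 3 were lower by size in day 6 than in day 4 organoids (Hk2, Pfkp and Aldoc) and 0 higher, beside 6.28% of all genes called lower and 13.3% called higher. Hk2 had 86.8 CPM (84.8 to 88.7) in day 6 organoids and 159 CPM (157 to 162) in day 4 organoids, a ratio of 0.545 (0.530 to 0.560). Pfkp had 14.3 CPM in day 6 and 30.8 CPM in day 4 organoids (ratio 0.464, 0.434 to 0.495), and Aldoc 7.79 CPM in day 6 and 15.2 CPM in day 4 organoids (ratio 0.511, 0.466 to 0.560). All 3 have a sister isoform in their step, as does every member but Gpi1 and Tpi1. Aldoa, the most abundant member, had 1133 CPM in day 6 and 1652 CPM in day 4 organoids, and its ratio of 0.686 (0.681 to 0.691) was just inside the limit. Tpi1 followed with 602 CPM in day 6 and 660.5 CPM in day 4 organoids, and Gpi1 with 289 and 279.8 CPM in the same order. Hk1 was the least abundant, with 7.37 CPM in day 6 and 8.23 CPM in day 4 organoids, under the level asked of a call. Pfkl, with 130.2 CPM in day 6 and 144.7 CPM in day 4 organoids, and Pfkm, with 12.04 and 14.4 CPM, were within the limits, as were Gpi1 and Tpi1. Summed over the isoforms of a step, hexokinase had a ratio of 0.562, phosphofructokinase 0.824 and aldolase 0.684. The median log2 ratio of all genes at 50 CPM or more was 0.11, so relative to the typical gene the members stood slightly lower than these ratios say.

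**Figure D1:**
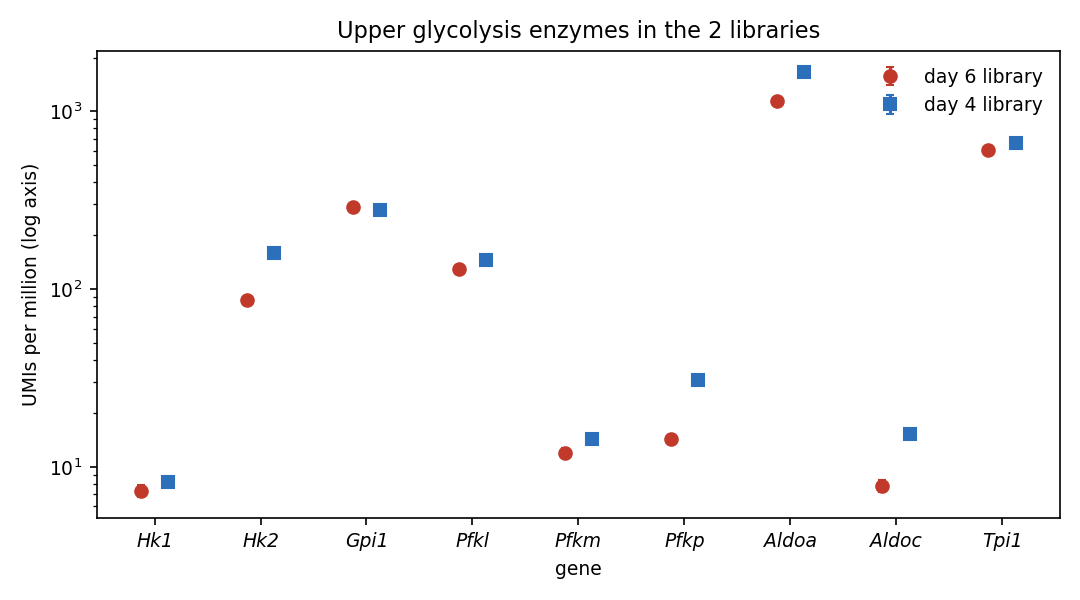
Levels in CPM (log axis) of the 9 upper glycolysis genes in the day 6 library (red circles) and the day 4 library (blue squares), with 95% Poisson intervals that are mostly shorter than the symbols. Hk2, Pfkp and Aldoc are clearly lower in the day 6 library, whereas Gpi1 is at nearly the same level on both days.

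Within each step the isoform in the lead was the same on both days. Hk2 made up 92.2% of the Hk1 and Hk2 UMIs (91.6 to 92.7) on day 6 and 95.1% (94.7 to 95.4) on day 4, a difference of -2.91 percentage points. Pfkl made up 83.2% of the phosphofructokinase UMIs (82.6 to 83.8) on day 6 and 76.2% (75.6 to 76.8) on day 4. That gain of 6.98 points (6.10 to 7.86) was matched by Pfkp, which held 9.12% on day 6 and 16.2% on day 4, while Pfkm held 7.69% and 7.58% on the same days and its difference did not leave out 0 (-0.477 to 0.702). Aldoc made up 0.683% of the aldolase UMIs on day 6 and 0.914% on day 4, so the aldolase was almost wholly Aldoa at both times. These shares do not depend on how a library is scaled, but they pool cells with and without Dppa5a. Among cells with no Dppa5a UMI the differences were 2.37 points for Pfkl, -3.36 for Pfkp and 0.992 for Pfkm (0.0849 to 1.88). Among Dppa5a-positive cells they were 4.39, -2.08 and -2.31 points (-3.39 to -1.17 for Pfkm). Hk2 differed by -2.77 points in zero and -7.34 points in positive cells, and Aldoc by -0.407 and 0.315 points.

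Cells with Dppa5a, in which the 6 other naive markers were higher on both days, differed most in Pfkp among the members. Those 6 markers summed to 611 CPM in positive and 6.71 CPM in zero cells of day 6, and to 463 and 21.6 CPM in those of day 4. On day 6 Pfkp was at 71.7 CPM (66.5 to 77.2) in Dppa5a-positive cells and 6.79 CPM (6.16 to 7.46) in cells without a Dppa5a UMI, a ratio of 10.6 (9.36 to 11.9). On day 4 it was at 66.8 CPM (64.0 to 69.8) in positive and 14.3 CPM (12.96 to 15.7) in zero cells, a ratio of 4.69 (4.23 to 5.21). Pfkp accordingly held 27.4% of the phosphofructokinase UMIs (25.6 to 29.1) in positive cells of day 6 and 4.76% (4.33 to 5.22) in zero cells, and 29.4% and 8.12% in the positive and zero cells of day 4. The share of Pfkl was lower in positive cells by the same token, at 67.0% and 87.1% in positive and zero cells of day 6. Pfkp was thus the second phosphofructokinase of Dppa5a-positive cells, ahead of Pfkm at 5.61% on day 6 and 7.92% on day 4. In cells without Dppa5a it ranked after Pfkm (8.12%) on day 6, but still ahead of Pfkm (7.12%) on day 4. Summed over a step, aldolase differed more than phosphofructokinase, with ratios of 2.30 and 1.84 on day 6 and 1.53 and 1.29 on day 4.

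Other members were higher in Dppa5a-positive cells of day 6 as well, and 5 of 9 were higher by size, beside 13.6% of all genes, with 0 lower, beside 24.1%. Aldoc was at 26.6 CPM in positive and 5.17 CPM in zero cells (ratio 5.14, 4.36 to 6.07), and Hk1 at 18.6 CPM in positive and 5.80 CPM in zero cells (ratio 3.20, 2.67 to 3.83). Aldoa was at 2218 CPM in positive and 971 CPM in zero cells (ratio 2.28, 2.25 to 2.32), and Gpi1 at 460.3 and 266 CPM (ratio 1.73). The remaining members were within the limits, from 1.13 for Tpi1 to 1.42 for Hk2. Because Hk1 differed more than Hk2, Hk2 held 86.3% of the Hk1 and Hk2 UMIs (84.3 to 88.1) in positive and 93.4% (92.7 to 94.03) in zero cells. On day 4 only Pfkp and Aldoa (2141 CPM in positive and 1402 CPM in zero cells, ratio 1.53) of 8 measured members were higher by size, beside 6.63% of all genes, and 0 were lower, beside 7.41%. Gpi1 and Pfkm, both at a ratio of 1.44, and Aldoc, at 1.42, lay just under the limit, and Hk1 with 11.8 and 6.02 CPM was under the level asked of a call. The typical gene was lower in Dppa5a-positive cells, with a median log2 ratio of -0.28 on day 6 and -0.17 on day 4. Relative to it 8 members were higher by size on day 6 and 5 on day 4, and with a threshold of 1 Dppa5a UMI the counts were 2 and 1. The share of all genes called under these settings is not given here, so these counts are not read against a background.

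Several members, among them Pfkp, Aldoa and Aldoc, differed with the amount of Dppa5a and not only with its presence. On day 6 Pfkp was at 6.79, 6.86, 12.9, 33.8 and 78.4 CPM in cells with 0, 1, 2 to 3, 4 to 9 and 10 or more Dppa5a UMIs. On day 4 the same bins held 14.3, 13.8, 14.8, 30.0 and 85.8 CPM. Cells with 1 UMI were thus close to cells with none on both days. On day 6 the cells with 2 to 3 UMIs (8.96 to 18.1 CPM) were already above those with none (6.16 to 7.46 CPM), whereas on day 4 only the bins of 4 or more stood above. Aldoa in these bins went through 971, 1072, 1245, 1635 and 2321 CPM on day 6, and Aldoc through 5.17, 5.39, 11.4, 14.9 and 28.65 CPM. Tpi1 showed no such order on day 6, with 592, 610.5, 564, 542 and 691 CPM.

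**Figure D2:**
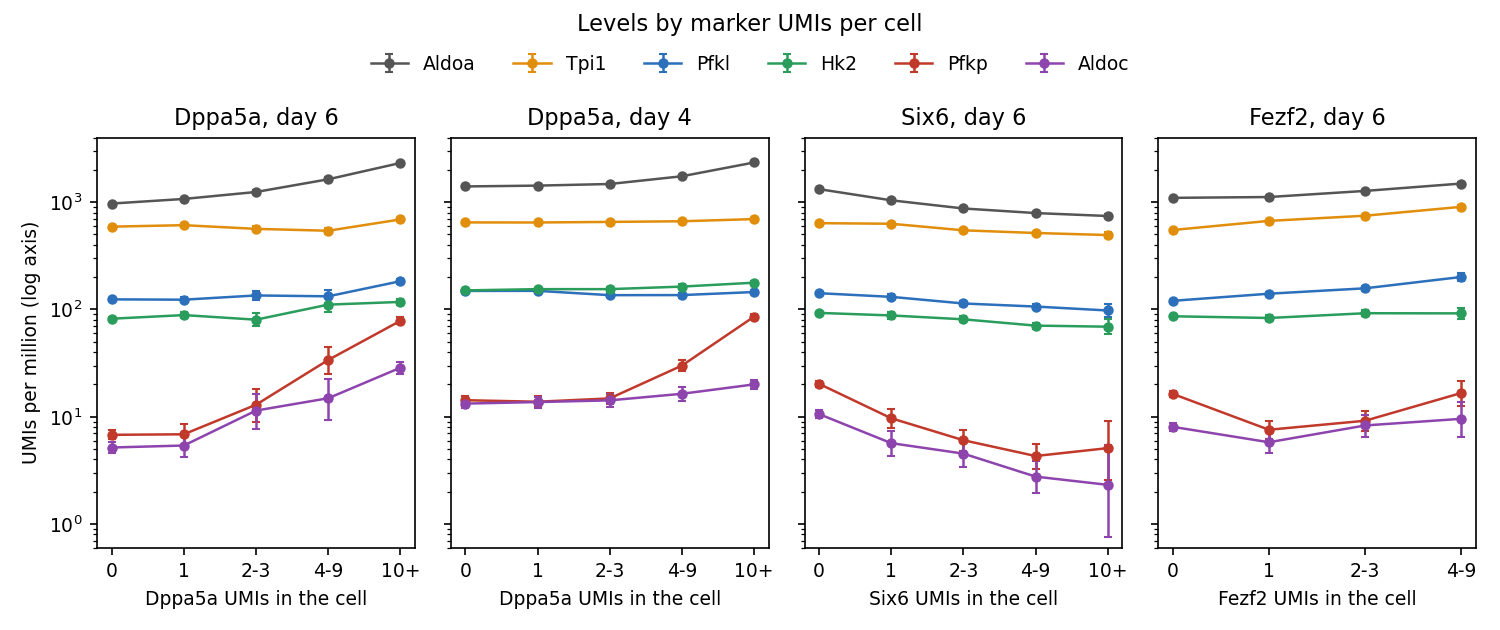
Levels in CPM (log axis) of Aldoa, Tpi1, Pfkl, Hk2, Pfkp and Aldoc in cells binned by their raw UMIs of Dppa5a (day 6, then day 4), Six6 (day 6) and Fezf2 (day 6), with 95% Poisson intervals and only bins of at least 50 cells. Pfkp is far higher in cells with 4 or more Dppa5a UMIs on both days, and Tpi1 and Pfkl are higher in each bin with more Fezf2. Aldoa and Aldoc are lower in each bin with more Six6, with some overlapping intervals of neighbouring bins.

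Hypoxia genes were high in the same cells. Of the 8 genes of the hypoxia list, 7 of 8 measured were higher by size in Dppa5a-positive cells of day 6, beside 13.6% of all genes. In those of day 4, 7 of 7 measured were higher, beside 6.63% of all genes. Pdk1, a mitochondrial kinase that inhibits pyruvate dehydrogenase, was at 141 CPM in positive and 18.5 CPM in zero cells of day 6, and Ndrg1, a stress-induced gene, at 37.3 and 1.27 CPM. Of the glucose transporters Slc2a3 was at 569 CPM in positive and 181 CPM in zero cells of day 6, while Slc2a1, at 479.9 and 321 CPM, was within the limits. The lower part of the pathway differed little: of 8 measured lower glycolysis genes Ldhb was higher (805 CPM in positive and 195 CPM in zero cells), Eno3 lower, and 6 within the limits. Of all genes 13.6% were higher and 24.1% lower in these cells of day 6. The 7 endoderm markers summed to 705 CPM in Dppa5a-positive and 50.3 CPM in zero cells of day 6, all 7 being higher, so the positive cells were not of 1 kind, and the part of these cells in the values was not tested beyond the Col4a1-positive cells described further on.

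Dppa5a-positive cells were fewer on day 6, and the day comparison was therefore repeated within them and within cells with no Dppa5a UMI. Cells with Dppa5a UMIs below the positive threshold were in neither set. Dppa5a-positive cells held 11.2% of all UMIs on day 6 and 31.4% on day 4. Of the Pfkp UMIs they held 56.4% (53.6 to 59.2) on day 6 and 68.2% (66.5 to 69.9) on day 4. Among cells with no Dppa5a UMI, Hk2 was at 82.0 CPM in day 6 cells and 150.6 CPM in day 4 cells (ratio 0.545, 0.523 to 0.567), and Pfkp at 6.79 CPM in day 6 cells and 14.3 CPM in day 4 cells (ratio 0.476, 0.416 to 0.545). These were the 2 of 7 measured members called lower by size, beside 6.08% of all genes, and 0 were higher, beside 13%. Aldoc, at 5.17 CPM in day 6 cells and 13.3 CPM in day 4 cells, had a ratio of 0.390 but a mean under 10 CPM. Among Dppa5a-positive cells Pfkp did not differ by size, at 71.7 CPM in day 6 cells and 66.8 CPM in day 4 cells (ratio 1.07, 0.984 to 1.17), nor did Aldoa at 1.04. Hk1 was higher by size in these cells (18.6 CPM in day 6 cells and 11.8 CPM in day 4 cells, ratio 1.57), the 1 of 9 members so called, beside 10.3% of all genes higher and 3.71% lower, and Hk2 was at 0.675, just inside the limit. The ratio of Hk1 was under 1.5 when every cell was given the same weight or the same depth.

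Cells of the optic vesicle on day 6 were set against the most common marked cells of day 4. Six6-positive cells of day 6 had less Hk2 (75.2 CPM) than Fgf5-positive cells of day 4 (167 CPM), a ratio of 0.450 (0.429 to 0.472), less Pfkp (5.16 and 23.4 CPM, ratio 0.220, 0.184 to 0.262) and less Aldoa (825 and 1569 CPM, ratio 0.526, 0.518 to 0.534). These were 3 of 7 measured members called lower, beside 8.46% of all genes, with 0 higher, beside 18.2%. Gpi1 was at 247 CPM in the Six6-positive cells of day 6 and 258 CPM in the Fgf5-positive cells of day 4, and Tpi1 at 528 and 683 CPM, both within the limits. Pfkp held 4.10% of the phosphofructokinase UMIs in the day 6 cells and 12.8% in the day 4 cells. Of the day 6 cells 1.05% were Dppa5a-positive, and of the day 4 cells 24.9%. The median log2 ratio of genes at 50 CPM or more was 0.15.

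**Figure D3:**
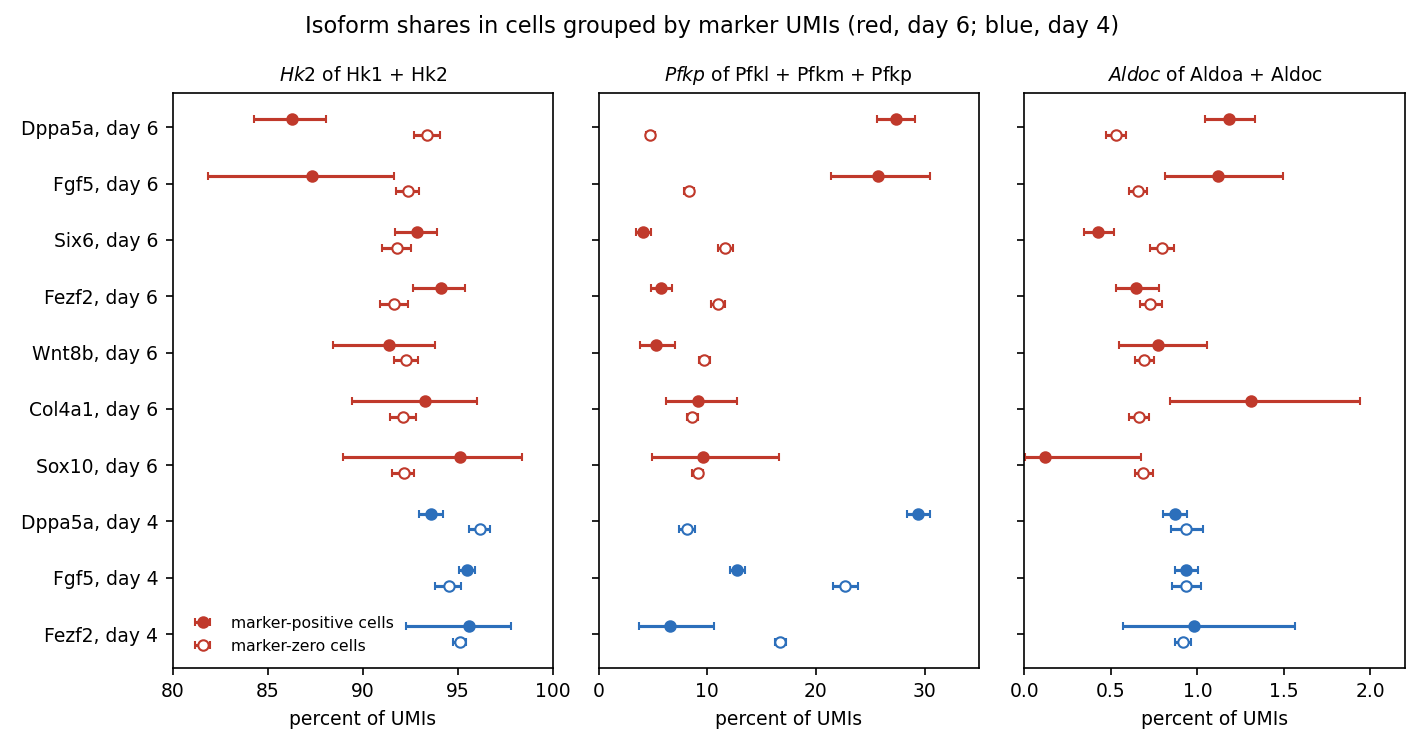
Percent of the UMIs of a step held by Hk2 (of Hk1 and Hk2), Pfkp (of Pfkl, Pfkm and Pfkp) and Aldoc (of Aldoa and Aldoc) in marker-positive cells (filled) and marker-zero cells (open) of the day 6 library (red) and the day 4 library (blue), with exact 95% intervals. The axes differ in range and the first starts at 80%. Pfkp stands at 27.4% and 29.4% in the Dppa5a-positive cells of day 6 and day 4, and Hk2 is lowest, at 86.3%, in the Dppa5a-positive cells of day 6.

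Within the day 6 library the Six6-positive cells, in which the 4 optic vesicle markers other than Six6 were higher, had the lowest Pfkp level of the positive groups, with an interval that overlapped only those of the Wnt8b- and Sox10-positive cells of that day. Pfkp was at 5.16 CPM (4.35 to 6.07) in Six6-positive and 20.3 CPM (19.1 to 21.6) in Six6-zero cells, a ratio of 0.254, and Aldoa at 825 CPM in positive and 1324 CPM in zero cells, a ratio of 0.624 (0.614 to 0.633). These 2 of 7 measured members were lower by size, beside 4.11% of all genes, with 0 higher, beside 1.94%. Aldoc, at 3.53 CPM in positive and 10.6 CPM in zero cells, had a ratio of 0.333 and a mean under 10 CPM. Along the bins of 0, 1, 2 to 3, 4 to 9 and 10 or more Six6 UMIs, Aldoa was at 1324, 1041, 874, 792 and 743 CPM and Aldoc at 10.6, 5.68, 4.53, 2.77 and 2.32 CPM. The intervals of the last 2 bins overlapped for Aldoa, and those of all neighbouring bins from 1 UMI up for Aldoc. These bins still held the Dppa5a-positive cells. The naive markers summed to 39.3 CPM in Six6-positive and 945 CPM in Six6-zero cells. Without the Dppa5a-positive cells 0 members were called in either direction, beside 1.3% of all genes higher and 2.11% lower. Aldoa then was at a ratio of 0.736 and Pfkp, at 4.82 CPM in positive and 8.17 CPM in zero cells, at 0.589 with a mean under 10 CPM. The glucose transporters were lower by size in Six6-positive cells, Slc2a1 with 226 CPM against 413 CPM in zero cells and Slc2a3 with 108 CPM against 313 CPM.

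Fezf2-positive cells of day 6 went the other way for several members, although 0 of 7 measured members were called (background 1.07% higher and 2.12% lower). Tpi1 was at 789.6 CPM in positive and 550.3 CPM in zero cells (ratio 1.43, 1.40 to 1.47), Pfkl at 169 and 120.4 CPM (ratio 1.40, 1.34 to 1.47) and Aldoa at 1332 and 1098 CPM (ratio 1.21). Pfkp was lower, as in Six6-positive cells, at 11.2 CPM in positive and 16.3 CPM in zero cells, and its ratio of 0.683 (0.567 to 0.817) was just inside the limit. Along 0, 1, 2 to 3 and 4 to 9 Fezf2 UMIs, Tpi1 was at 550.3, 669, 748 and 906 CPM and Pfkl at 120.4, 140.3, 157.5 and 201 CPM. The median UMIs per cell in these bins were 12183, 12720, 13947 and 15099. The naive markers summed to 33.3 CPM in positive and 778 CPM in zero cells. Without the Dppa5a-positive cells Pfkl was higher by size at a ratio of 1.53 (1.45 to 1.61), beside 0.932% of all genes higher and 0.902% lower, while Tpi1 at 1.497 and Aldoa at 1.49 were just inside the limit and Pfkp, at 10.8 CPM in positive and 6.25 CPM in zero cells, had a mean under 10 CPM. Of 3 further anterior forebrain markers, Lhx5 was at 40.1 CPM in positive and 9.38 CPM in zero cells, Hesx1 at 30.4 and 11.5 CPM, and Dlx5 was close to 0 in both. The 5 optic vesicle markers still summed to 510 CPM in positive and 676 CPM in zero cells, and the 5 dorsal forebrain markers to 107 and 33.7 CPM. The Fezf2-positive cells were thus not purely anterior forebrain by these markers.

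The Six6-positive and Fezf2-positive cells of day 6 were then set against each other directly. The 725 day 6 cells positive for Fezf2 and not Six6 were compared with the 1903 cells positive for Six6 and not Fezf2, a comparison chosen after the values of both groups were seen. Aldoa was at 1337 CPM in the Fezf2 cells and 798 CPM in the Six6 cells (ratio 1.68, 1.64 to 1.71), Pfkl at 168 and 105 CPM (ratio 1.60, 1.51 to 1.70) and Tpi1 at 795 and 515 CPM (ratio 1.54, 1.502 to 1.59). These 3 of 6 measured members were higher, beside 2.31% of all genes, and 0 were lower, beside 1.74%. Hk2 (ratio 1.24) and Gpi1 (ratio 1.26) were within the limits, and Aldoc (8.58 and 3.21 CPM) and Pfkp (11.3 and 4.85 CPM) had means under 10 CPM. Without Dppa5a-positive cells the ratios of Aldoa, Pfkl and Tpi1 were 1.69, 1.60 and 1.55, and these 3 were again the members called higher, beside 2.36% of all genes higher and 1.77% lower. Pfkl held 87.1% of the phosphofructokinase UMIs in Fezf2 and 86.7% in Six6 cells, a difference of 0.376 points (-1.54 to 2.25) that did not leave out 0. Pfkp held 5.84% in Fezf2 and 4.00% in Six6 cells, a difference of 1.84 points (0.623 to 3.12), and Pfkm 2.22 points less (-3.73 to -0.671), so the order of the minor isoforms was the same in both, with a smaller gap in Fezf2 cells. The transporters Slc2a1 (545 CPM in Fezf2 and 215 CPM in Six6 cells) and Slc2a3 (322.5 and 99.97 CPM) and the lactate-forming Ldha (2345 and 1505 CPM) were higher in the same cells, whereas Ldhb was lower (139 and 272 CPM).

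**Figure D4:**
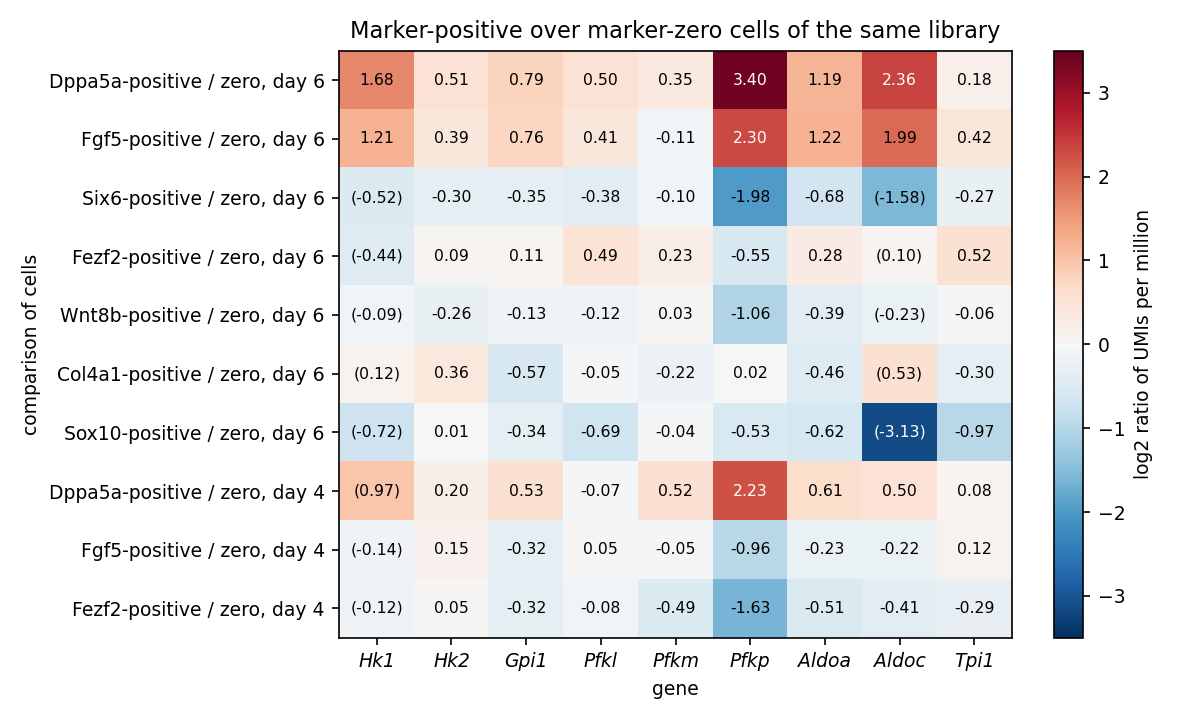
Log2 ratio of the levels in CPM in marker-positive over marker-zero cells of the same library for each of the 9 genes (columns) and 10 groups of cells (rows, day 6 above day 4), with values in parentheses where the mean of both groups was under 10 CPM. Red marks higher and blue lower in the positive cells. The Pfkp column has the widest spread among genes without a value in parentheses, from 3.40 in Dppa5a-positive to -1.98 in Six6-positive cells of day 6.

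Wnt8b-positive cells of day 6, of which 121 of 368 were also Fezf2-positive, differed by size from their zero cells only in Pfkp, the 1 of 7 measured members that was lower (7.40 CPM in positive and 15.4 CPM in zero cells, ratio 0.481, 0.345 to 0.654), beside 2.68% of all genes, with 0 higher, beside 1.82%. The 4 dorsal forebrain markers other than Wnt8b were higher in the positive cells, and the naive markers summed to 32.4 CPM in positive and 649 CPM in zero cells. Without the Dppa5a-positive cells Pfkp was at 7.14 CPM in positive and 7.08 CPM in zero cells, a ratio of 1.01 (0.712 to 1.40), and 0 members were called, beside 1.65% of all genes higher and 1.67% lower. Aldoa was at 883 CPM in positive and 1156 CPM in zero cells (ratio 0.764) and Tpi1 at 578 and 601 CPM.

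In Col4a1-positive cells 0 of 7 measured members were called by size, beside 28.3% of all genes higher and 21.1% lower, but another hexokinase was present. The 6 endoderm markers other than Col4a1 were higher in them, with a sum of 2307 CPM in positive and 12.3 CPM in zero cells, and the naive markers summed to 1878 and 489.8 CPM. The median log2 ratio of genes at 50 CPM or more was -0.11. Hkdc1, a hexokinase-like gene beyond the 9, was at 45.5 CPM in Col4a1-positive (99 UMIs) and 0.0741 CPM in Col4a1-zero cells (5 UMIs), and it was under 10 CPM in every other group. With it counted, Hkdc1 held 28.2% (23.6 to 33.2) of the UMIs of the 3 hexokinases in Col4a1-positive cells, Hk2 67.0% and Hk1 4.84%. In Dppa5a-positive cells of day 6 Hkdc1 was at 7.31 CPM (72 UMIs) and held 5.13% (4.03 to 6.41), and Hk2 then held 81.8%. Hk2 itself was at 108 CPM in positive and 83.9 CPM in zero cells (ratio 1.29). Aldoa was at 832 CPM in positive and 1147 CPM in zero cells (ratio 0.725) and Gpi1 at 197 and 292 CPM (ratio 0.676), both just inside the limit. Aldoc, at 11.03 CPM in positive and 7.63 CPM in zero cells, held 1.31% (0.840 to 1.94) of the aldolase UMIs in positive and 0.661% in zero cells. The 62 Col4a1-positive cells that were not Dppa5a-positive, against zero cells that were not either, had Gpi1 (ratio 0.662) and Aldoa (ratio 0.640) lower by size, beside 19% of all genes lower and 28.5% higher. They had Pfkp at 2.90 CPM from 2 UMIs (ratio 0.417, 0.0503 to 1.52) and Hkdc1 at 42.1 CPM.

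In the lower part of glycolysis 7 of 8 measured genes were lower by size in Col4a1-positive cells, beside 21.1% of all genes. Among them were Eno1 with 368 CPM in positive and 1027 CPM in zero cells and Pkm with 735 and 1413 CPM. Slc2a3 was higher, at 573 CPM in positive and 220.3 CPM in zero cells, and Slc2a1 lower, at 149.8 and 351 CPM. Gfpt1, which draws fructose 6-phosphate into amino sugar synthesis, was at 52.4 CPM in positive and 11.2 CPM in zero cells (ratio 4.67, 3.80 to 5.70). P4ha1, a collagen-modifying enzyme of the hypoxia list, was at 299 CPM in positive and 23.6 CPM in zero cells. Of the 8 genes of that list 6 were higher, beside 28.3% of all genes.

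Sox10-positive cells, a group of 70 cells formed with a threshold of 1 UMI because only 25 cells had 2 or more, were lowest in triose phosphate isomerase. The 5 neural crest markers other than Sox10 were higher in them (a sum of 425 CPM in positive and 14.2 CPM in zero cells). Tpi1 was at 309 CPM (277 to 343) in positive and 606 CPM (601 to 611) in zero cells, a ratio of 0.510 (0.457 to 0.567), Pfkl at 81.1 and 131 CPM (ratio 0.620, 0.498 to 0.762) and Aldoa at 740.5 and 1138 CPM (ratio 0.651, 0.607 to 0.697). These 3 of 7 measured members were lower by size, beside 7.84% of all genes, with 0 higher, beside 5.74%. Without Dppa5a-positive cells Aldoa, at 0.694, was inside the limit, and Tpi1 (0.499) and Pfkl (0.633) remained lower, beside 7.55% of all genes lower and 5.68% higher. Hk2 did not follow them, at 87.4 CPM in positive and 86.7 CPM in zero cells (ratio 1.01, 0.816 to 1.23). Aldoc was found with 1 UMI in the positive cells, or 0.901 CPM against 7.88 CPM in zero cells (ratio 0.114, 0.00289 to 0.639). Slc2a1, at 102 CPM in positive and 346 CPM in zero cells, and Slc2a3, at 59.5 and 235 CPM, were lower too.

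Among the groups marked by Fgf5 on both days and by Fezf2 on day 4, Pfkp was called in each. In Fgf5-positive cells of day 6, 5 of 9 members were higher by size, beside 10.3% of all genes higher and 20.8% lower. These were Pfkp with 62.7 CPM in positive and 12.7 CPM in zero cells (ratio 4.94, 3.97 to 6.09), Aldoc (28.7 and 7.22 CPM), Aldoa (2542 and 1090.4 CPM), Hk1 (16.3 and 7.07 CPM) and Gpi1 (479 and 283 CPM). Of these 101 cells only 30 were not Dppa5a-positive, too few to compare. The median log2 ratio of genes at 50 CPM or more was -0.27 in this comparison, and relative to it 8 members were higher, with no share over all genes given for that setting. In Fgf5-positive cells of day 4, Pfkp was the 1 of 8 measured members that was lower, at 23.4 CPM in positive and 45.7 CPM in zero cells (ratio 0.513, 0.473 to 0.555), beside 3.15% of all genes lower and 0.941% higher. Without Dppa5a-positive cells this ratio was 1.31 (1.11 to 1.55), on the other side of 1, and 0 members were called, beside 0.449% of all genes higher and 0.975% lower. In Fezf2-positive cells of day 4, Pfkp was again the 1 of 8 members that was lower (10.3 CPM in positive and 32.0 CPM in zero cells, ratio 0.322, 0.180 to 0.532), beside 4.55% of all genes lower and 4.18% higher. Without Dppa5a-positive cells its ratio was 0.665 (0.362 to 1.12), and 0 members were called, beside 2.49% of all genes higher and 2.8% lower. The naive markers moved with these ratios: they summed to 2813 CPM in Fgf5-positive and 489 CPM in Fgf5-zero cells of day 6, 522 and 1688 CPM in those of day 4, and 69.4 CPM in Fezf2-positive and 952 CPM in Fezf2-zero cells of day 4. The 5 optic vesicle markers summed to 227 CPM in Fezf2-positive and 31.5 CPM in Fezf2-zero cells of day 4, all 5 being higher. Hk2 was within the limits in all 3 groups.

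The levels of each member were then ordered over the 10 positive groups of both days, which share cells. Hk2 was ordered by day. Its 7 groups of day 6 ran from 72.9 CPM in Wnt8b-positive through 75.2 (Six6), 87.4 (Sox10), 92.2 (Fezf2), 108 (Col4a1) and 112 (Fgf5) to 116.6 CPM in Dppa5a-positive cells, and its 3 groups of day 4 lay above all of these at 164 (Fezf2), 167 (Fgf5) and 173 CPM (Dppa5a). The only neighbours in that order whose intervals did not overlap were the highest group of day 6 and the lowest of day 4. Hk1 did not follow the day: 7 groups lay between 4.50 CPM (Sox10, day 6) and 7.93 CPM (Fgf5, day 4) with overlapping neighbours, and above them stood Dppa5a-positive cells of day 4 (11.8 CPM), Fgf5-positive cells of day 6 (16.3 CPM) and Dppa5a-positive cells of day 6 (18.6 CPM). Col4a1-positive cells, 110 of 172 of them Dppa5a-positive, were among the lower 7 at 7.81 CPM. The hexokinases therefore had different orders. The lowest Hk2 shares of the Hk1 and Hk2 UMIs, 86.3% in Dppa5a-positive and 87.3% in Fgf5-positive cells, were both of day 6.

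Pfkp formed tiers. From 5.16 CPM in Six6-positive through 7.40 (Wnt8b), 9.91 (Sox10), 10.3 (Fezf2, day 4) and 11.2 (Fezf2, day 6) to 13.8 CPM in Col4a1-positive cells, neighbours overlapped. Fgf5-positive cells of day 4 stood apart at 23.4 CPM, and Fgf5-positive cells of day 6 (62.7 CPM) and Dppa5a-positive cells of day 4 (66.8 CPM) and day 6 (71.7 CPM) overlapped again, 13.9-fold above the lowest. Pfkl ranged 2.17-fold, from 81.1 CPM in Sox10-positive to 176 CPM in Dppa5a-positive cells of day 6, and Fezf2-positive cells of day 6 shared its top tier at 169 CPM although they were low in Pfkp. Pfkm ranged 1.74-fold, from 10.3 CPM in Fezf2-positive to 18.0 CPM in Dppa5a-positive cells of day 4, and the intervals of all neighbours overlapped. Pfkl held 62.6% to 87.1% of the phosphofructokinase UMIs in every group and was always the leading isoform.

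Aldoa separated the groups most finely. It ran from 740.5 CPM in Sox10-positive cells through a cluster of Six6 (825 CPM), Col4a1 (832 CPM) and Wnt8b (883 CPM), then Fezf2-positive cells of day 4 (1180.0 CPM) and day 6 (1332 CPM), Fgf5-positive cells of day 4 (1569 CPM), and Dppa5a-positive cells of day 4 (2141 CPM) and day 6 (2218 CPM), to 2542 CPM in Fgf5-positive cells of day 6, with intervals that overlapped only within that cluster. Aldoc kept a like order at a far lower level, from 0.901 CPM in Sox10-positive and 3.53 CPM in Six6-positive to 28.7 CPM in Fgf5-positive cells of day 6, and never exceeded 1.31% of the aldolase UMIs. Gpi1 ranged 2.43-fold, from 197 CPM in Col4a1-positive to 479 CPM in Fgf5-positive cells of day 6, and Tpi1 2.58-fold. The lowest Tpi1 level, 309 CPM in Sox10-positive cells, stood apart from the next, 496 CPM in Col4a1-positive cells, and the highest were 789.6 CPM in Fezf2-positive and 796 CPM in Fgf5-positive cells of day 6, with overlapping intervals. Fezf2-positive cells of day 4, at 543 CPM, were in the lower part of this order, while Dppa5a-positive cells of day 6 (668 CPM) and day 4 (685 CPM) came below the highest pair, on either side of Fgf5-positive cells of day 4 (683 CPM).

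Over the 9 groups formed with the planned thresholds, which share cells and come from 2 libraries, the level of Pfkp was most like that of Pdk1 (Pearson r of log2(CPM + 1) 0.979), 2010107G23Rik and Cldn4. Aldoa was most like Akap12 (r 0.986), Pipox and Ndufa4l2, and Tpi1 most like the glucose transporter Slc2a1 (r 0.922), the lactate transporter Slc16a3 (0.884) and Fam162a (0.863). Other members were nearest to genes of other kinds. Gpi1 was most like the ribosomal protein gene Rpl18 (r 0.989), Hk2 most like Rps21 (0.976) and Rps28 (0.976), and Hk1 most like Wdr89 (0.976). Aldoc was most like Tpd52 (0.965), Pfkm most like Usp28 (0.907) and Pfkl most like Grhpr (0.888). Among the members themselves Pfkp was nearest to Aldoc (r 0.938), Aldoa (0.930) and Hk1 (0.923), and Hk2 was farthest from Gpi1 (0.0722). These r describe 9 overlapping groups and were not tested, and the genes named as most alike are the highest of 6913 compared.

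Genes that steer these steps were low in the whole libraries. Of the 7 genes that make or remove fructose bisphosphates or their signal (Pfkfb1, Pfkfb2, Pfkfb3, Pfkfb4, Tigar, Fbp1 and Fbp2), 0 reached a mean of 10 CPM between the days, Tigar coming closest at 8.01 CPM in day 6 cells and 9.59 CPM in day 4 cells. Among Dppa5a-positive cells Tigar did reach it, at 11.3 CPM on both days, and Fbp2 was at 14.4 CPM in day 6 cells and 2.10 CPM in day 4 cells. Of 4 other isoforms (Hk3, Hkdc1, Aldoart1 and Aldoart2), 0 reached it between the days, and Hkdc1 alone did so in a group. Of the genes listed as side branches of these steps, Pgm2 was lower by size between the days (13.8 CPM in day 6 cells and 50.9 CPM in day 4 cells) and Pgm1 higher (12.6 and 7.82 CPM).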

How the data were processed

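Single cell libraries of day 6 and day 4 eye organoids (10x Genomics Chromium 3′ v2) were analysed. The authors deposited raw, unscaled UMI counts per gene and barcode on build mm10. According to the submitters' processing notes, the tools were Cell Ranger 2.0.1 and Seurat 2.3.4, with roles not given there, and the study's own software list gives later versions. The deposited files held 7446 day 6 and 9114 day 4 barcodes.

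Cells were kept by the stated filter (500 to 5000 genes, 500 to 26000 UMIs, at most 10% mitochondrial, at least 20% ribosomal protein and at most 0.5% haemoglobin counts), which left 89.2% and 89.4%. Scrublet (scanpy 1.11.5) marked 0 day 6 and 1 day 4 barcodes and so had not worked; doublets and free RNA were left in. UMIs were summed per group. Levels carry exact Poisson, ratios exact conditional binomial and shares Clopper-Pearson intervals (scipy 1.17.1), and differences of shares combine the latter. The procedure was tested on simulated data. With 1 library per day, no p-value was computed.

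The genes named are the 9 members, 7 markers, cell type markers, 36 genes of pathway lists and, per member, the 3 genes with the highest correlation. Some genes of the lists are not reported here, and sums and counts leave them out. Members and lists were chosen with earlier results of these data known. The Sox10 threshold, the groups without Dppa5a-positive cells and the Fezf2 against Six6 comparison were added after the data were seen. Alternatives changed the cell filter, doublets, weights, depth, totals, centring, thresholds, reference cells and group overlap.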

Additional observations from a re-analysis of the deposited data

Results flagged for a closer look

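Pfkp differed in opposite directions in Fgf5-positive cells of the 2 days. It was 4.94 times the level of Fgf5-zero cells on day 6 (62.7 CPM in positive and 12.7 CPM in zero cells) and 0.513 times on day 4 (23.4 CPM in positive and 45.7 CPM in zero cells), and the intervals of both ratios left out 1. The difference between the days was not tested, since each day is 1 library. Of the Fgf5-positive cells 70.3% were Dppa5a-positive on day 6 and 24.9% on day 4. Without Dppa5a-positive cells the ratio of day 4 was 1.31 (1.11 to 1.55), and on day 6 only 30 Fgf5-positive cells were left, under the 50 asked of a group.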

How the results depend on the processing

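Each day was 1 library, so no library could be left out, and intervals do not cover the spread between the 3 pooled experiments. No paired analysis was possible because each group had 1 library and no result came from a test. Of 298 counts of members called by size under the alternatives, 263 stayed within 1.5 times their value; of 472 differences of shares, 431 stayed within their interval, 35 left it and 6 whose interval left out 0 turned round; of 1341 single ratios, 1032 stayed, 307 left it and 2 that were called turned round. A further 32 differences of shares with an interval that held 0, and 65 ratios that were not called, changed sign. Between the whole libraries 3 or 4 members were lower and 0 higher under every alternative run. For most alternatives the share of all genes called is not given here, so their counts are not read against a background. The cause of the moves was not tested.

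In Dppa5a-positive cells of day 4 (2 members higher) the count was 1 with all barcodes, with a threshold of 1 UMI and against all cells under the threshold, 4 with equal weight per cell and a doubled threshold, and 5 with thinned cells, with totals without mitochondrial and ribosomal protein genes, after centring and without other markers. In those of day 6 (5 higher) it was 8 after centring and 2 with a threshold of 1 UMI, and in Fgf5-positive cells of day 6 (5 higher) 8 after centring. In Six6-positive cells (2 lower) it was 1 with a threshold of 1 UMI and 0 without Dppa5a-positive cells. In Fezf2-positive cells of day 6 (0 called) 1 was lower without the highest Scrublet scores, with a threshold of 1 UMI and without other markers; 2 were higher with a doubled threshold, and 1 without other markers or without Dppa5a-positive cells. In those of day 4 (1 lower) it was 2 without other markers and 0 without Dppa5a-positive cells. In Col4a1-positive cells (0 lower) it was 1 with equal weight, thinning, the other totals and a doubled threshold, and 2 without other markers or Dppa5a-positive cells. In Sox10-positive cells (3 lower) it was 1 with all barcodes. The counts of 1 lower in Fgf5-positive cells of day 4 and in Wnt8b-positive cells were 0 without Dppa5a-positive cells. Between the days, Dppa5a-positive cells (1 higher, 0 lower) had 1 lower with all barcodes and 0 higher with equal weight or thinning, and Dppa5a-zero cells (2 lower) had 4 with the other totals.

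Those that turned round, meaning that they changed sign, did so without Dppa5a-positive cells. The ratio of Pfkp was 1.31 in Fgf5-positive cells of day 4 (0.513 with them) and 1.01 in Wnt8b-positive cells (0.481), the latter with an interval that held 1. The difference in the share of Pfkl was -2.02 points in Fgf5-positive cells of day 4 (9.51 with them), -0.067 in Six6-positive (5.47) and -0.820 in Wnt8b-positive cells (3.28). That of Pfkp was 1.17 points in Fgf5-positive cells of day 4 (-9.96), 0.686 in Fezf2-positive cells of day 6 (-5.26) and 0.205 in Wnt8b-positive cells (-4.45). Only the Pfkl difference in Fgf5-positive cells of day 4 then had an interval that left out 0 (-3.63 to -0.351). The intervals of the other share differences held 0, as for Pfkl in Six6-positive cells (-1.50 to 1.34) and Pfkp in Fezf2-positive cells of day 6 (-0.358 to 1.81).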
